A study of Mus musculus with 4 samples.

Results

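The 40 genes described here build the contractile apparatus of heart muscle, move calcium in it or carry its electrical signal. They came from a fixed list of symbols with 9 thick filament genes, 6 thin filament genes, 9 genes of the Z-disc, desmin network and muscle membrane, 3 natriuretic peptide and stretch-responsive genes, 6 calcium handling genes, 4 conduction genes and 3 genes of muscle energy supply and sarcomere assembly. A gene was found by the name that the array files give to its probes, and all 40 were found among the 22066 genes named on the array. They had 58 probes, and 13 of them had several. A probe named D930026N18Rik, an older synonym of Cacna1c, was the 1 probe found through a synonym, and whether it reads Cacna1c transcripts was not tested.

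Cardiac mesenchymal progenitors (CMPs) are stromal cells with the surface antigen Sca-1, taken here from the hearts of adult C57BL/6 mice and, by the study's methods, from the atria. The CMP control received no virus and is labelled day 0. OSKM-CMPs had been transduced with Sendai virus, an RNA virus that stays out of the genome, carrying Oct4, Sox2, Klf4 and c-Myc, and were collected on day 4, day 6 and day 8. By the study's methods they were kept in a reprogramming medium without leukemia inhibitory factor and the days were counted from the day after transduction. The labels give the same growth medium with 40 ng/ml bFGF for all samples, and the study's methods give a lower concentration. Each condition had 1 array and no replicate, so every difference below is between single arrays and no test between conditions was possible. The control had a single time point, and the effects of culture time, medium, viral infection and the reprogramming factors cannot be told apart. The arrays measured RNA of the whole culture, in which fewer cells of a type and less RNA per cell cannot be told apart.

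In a heart muscle cell, thick filaments of myosin pull on thin filaments of actin between Z-discs. Calcium enters through the L-type channel (Cacna1c), releases more calcium through the ryanodine receptor (Ryr2), binds troponin on the thin filament and is pumped back by the calcium ATPase SERCA2 (Atp2a2). Connexins (Gja1, Gja5) pass the electrical signal from cell to cell. Several of these genes are also used outside the heart: Cryab, Gja1, Atp2a2 and Ankrd1 have roles in many cell types, and Acta1 encodes the actin of skeletal muscle.

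Signal was read in 1 colour on SurePrint G3 Mouse arrays, with 250 ng of RNA labelled for each by the labels. A level is given here as the log2 of the processed signal minus the 75th percentile of its array, so that 0 is the 75th percentile. In order of day, that percentile was a signal of 389.3, 388.5, 406.4 and 410.9 on the 4 arrays, and no spot was saturated. The lowest level well above background was between -5.57 and -5.18 on the 4 arrays. An error (±) is 1 SD from the error model of the scanner software, covers a single array or a pair of arrays, and leaves out the spread between cultures. Probes spotted 5 or more times had a median SD between spots of 0.063 to 0.066 (log2), and by the error model a gene's difference from the control had a median error of 0.20. All 12 markers of the labelled mesenchymal cell type were well above background on every array, and Ly6a, which encodes Sca-1, had levels of 4.65, 6.69, 6.96 and 7.35 from the control to day 8. At day 8, 3 of the 12 were at least 2-fold lower (10.5% of all genes) and 4 higher (12.2% of all genes). Tcf21, a transcription factor of cardiac fibroblasts, differed by -4.65 ± 0.21 and Thy1 by -1.78 ± 0.20, and Lum, a matrix proteoglycan, by 4.83 ± 0.20.

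Probe sequences of 5 members are shown because the changes of these genes each rest on 1 probe, and a reader can see which part of the transcript was read. They are the 60 bases of the array files with their mm9 positions, 5′ to 3′, and each has a reading frame without a stop codon. The Tnnt2 probe is spread over 313 bases of the genome and the Myl7 probe over 250 bases, so both cross an intron.
Acta1, chr8:126416197-126416256, minus strand: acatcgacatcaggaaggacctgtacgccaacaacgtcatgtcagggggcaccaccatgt
Tnnt2, chr1:137747976-137748288, plus strand: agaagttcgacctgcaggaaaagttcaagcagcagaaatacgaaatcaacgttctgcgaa
Tnni3, chr7:4472043-4472102, minus strand: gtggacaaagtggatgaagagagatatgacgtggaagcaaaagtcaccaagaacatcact
Myl7, chr11:5798186-5798435, minus strand: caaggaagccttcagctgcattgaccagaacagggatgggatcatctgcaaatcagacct
Nppb, chr4:147360489-147360548, plus strand: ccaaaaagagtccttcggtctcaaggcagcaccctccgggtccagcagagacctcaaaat

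Upstream sequences of 6 of the members whose levels moved at least 2-fold are shown as the 250 bases before the RefSeq transcription start (GRCm38.p6). Capitals mark matches, on either strand, of the CArG box (bound by serum response factor), the MEF2 site and the MCAT element CATTCC (bound by TEAD factors; GGAATG on the other strand).
Ankrd1, chr19:36119845-36120094, minus strand: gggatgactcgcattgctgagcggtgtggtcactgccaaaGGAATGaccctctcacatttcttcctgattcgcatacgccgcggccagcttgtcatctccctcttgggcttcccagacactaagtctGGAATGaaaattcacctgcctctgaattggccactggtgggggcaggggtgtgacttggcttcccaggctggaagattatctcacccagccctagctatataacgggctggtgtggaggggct
Acta1, chr8:123894776-123895025, minus strand: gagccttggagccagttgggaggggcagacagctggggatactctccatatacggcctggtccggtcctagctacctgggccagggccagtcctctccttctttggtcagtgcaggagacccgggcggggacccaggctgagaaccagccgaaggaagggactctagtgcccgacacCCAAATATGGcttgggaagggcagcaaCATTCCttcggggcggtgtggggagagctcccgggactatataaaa
Tnnt2, chr1:135836084-135836333, plus strand: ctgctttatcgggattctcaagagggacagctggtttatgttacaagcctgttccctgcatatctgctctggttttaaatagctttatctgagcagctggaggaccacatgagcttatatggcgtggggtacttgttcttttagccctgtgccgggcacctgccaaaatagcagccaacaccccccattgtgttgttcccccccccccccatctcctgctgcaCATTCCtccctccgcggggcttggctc
Mybpc3, chr2:91117894-91118143, plus strand: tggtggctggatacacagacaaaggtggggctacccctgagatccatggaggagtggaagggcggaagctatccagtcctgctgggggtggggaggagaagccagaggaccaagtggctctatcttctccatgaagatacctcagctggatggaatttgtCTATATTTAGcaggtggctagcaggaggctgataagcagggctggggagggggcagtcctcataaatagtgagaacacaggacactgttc
Myl7, chr11:5898783-5899032, minus strand: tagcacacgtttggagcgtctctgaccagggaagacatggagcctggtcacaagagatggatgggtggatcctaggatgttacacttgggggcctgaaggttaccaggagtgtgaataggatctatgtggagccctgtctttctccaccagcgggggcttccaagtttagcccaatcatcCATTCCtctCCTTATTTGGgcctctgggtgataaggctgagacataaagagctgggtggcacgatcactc
Nppb, chr4:147985650-147985899, plus strand: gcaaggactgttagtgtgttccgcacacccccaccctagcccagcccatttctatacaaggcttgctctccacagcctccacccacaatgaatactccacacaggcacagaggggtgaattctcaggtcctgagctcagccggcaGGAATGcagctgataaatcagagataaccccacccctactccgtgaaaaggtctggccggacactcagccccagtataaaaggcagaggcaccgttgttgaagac

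The Ankrd1 sequence held 2 MCAT matches on the minus strand, at positions -210 to -205 and -123 to -118, where -1 is the base before the start site. In Acta1 a CArG box lay at -73 to -64 and an MCAT element at -46 to -41. In Myl7 an MCAT element lay at -70 to -65 and a CArG box at -61 to -52. Mybpc3 held a MEF2 site, Tnnt2 an MCAT element, and Nppb an MCAT element on the minus strand. Tnnt2 has a further listed start, whose window held none of these 3 motifs and is not shown. Each of the sequences shown holds such a match, but not every member that moved does. Of the members at least 2-fold apart at day 8 and not shown, Cav3 had an MCAT match in its window. Gja5, Myl2 and Tnni3 had none of the 3 motifs. Of the 40 members, 35 had a promoter window of 300 bases (250 before to 50 after the start) in the RefSeq table. A CArG box lay in 7 of these 35 (20%), against 1.81% of the 27025 genes in the table, and MCAT in 12 (34.3%) against 16.6%. A MEF2 site lay in 4 (11.4%) against 3.70%, GATAA (bound by GATA factors) in 16 (45.7%) against 28.4%, and an E-box (CANNTG) in 31 (88.6%) against 75%. Any of these letters can overlap another motif, and a match describes the letters in the window, not binding. CArG boxes lay in promoters of members that fell (Acta1), rose (Myl7) and moved less than 2-fold (Ldb3, Myl3, Myom1), and in 2 members without a probe well above background (Actc1, Nebl).

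Many of the cardiac genes had signal in the untreated cells, and more of them did in OSKM-CMPs. In the CMP control 23 of 40 members were well above background (57.5%). In OSKM-CMPs 28 members were so at day 4 (70%), 29 at day 6 (72.5%) and 27 at day 8 (67.5%). Over all 22066 genes the shares on the same 4 arrays were 69.2%, 70.3%, 69.9% and 71.6%. The share among members was thus lowest on the control array, where it was also furthest below that of all genes. On all 4 arrays 23 members were well above background, and 6 were so on some arrays: Myh6, Myl7, Tnni3 and Des on all 3 OSKM-CMP arrays, Ryr2 at day 4 and day 6, and Ckm at day 6. Well above background is a strict flag of the scanner software, and a dim gene can still carry signal. By the looser flag (significantly positive signal) 38 of 40 members were detected on at least 1 array, and so were 20283 of all 22066 genes. By the strict flag the other 11 were not well above background on any array: Ttn, Actc1, Nebl, Actn2, Csrp3, Myoz2, Pln, Casq2, Kcnq1, Hcn4 and Ckmt2.

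**Figure D1:**
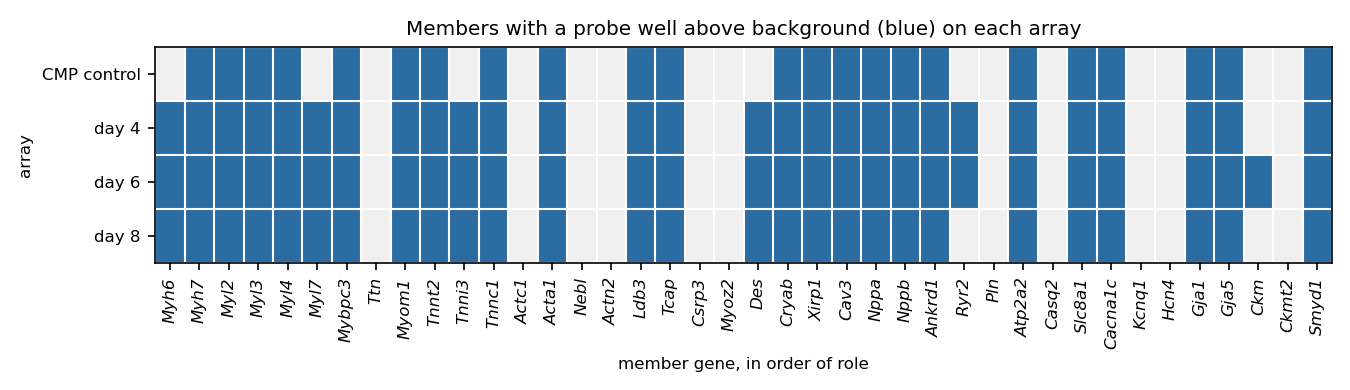
Each column is 1 of the 40 member genes and each row 1 array; blue marks a gene with at least 1 probe well above background. From the top row down, 23, 28, 29 and 27 of the 40 members are blue, and 11 are blue in no row.

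Among the 29 measured members, 10 were at least 2-fold apart from the control at day 8, the furthest of them Ankrd1, Acta1 and Cav3, which were lower. A gene counts as moved when it was at least 2-fold apart between a pair of arrays and well above background on at least 1 of them. At day 4, 5 of 29 members were lower than the control, where 8.15% of all 16543 measured genes were, and 3 were higher, where 9.97% of all genes were. At day 6, 5 were lower (10.5% of all genes) and 4 higher (11% of all genes). At day 8, 6 were lower (20.7% of members against 10.5% of all genes) and 4 higher (13.8% against 12.2%). Acta1, Cav3, Ankrd1 and Gja5 were lower on all 3 days, and Myl2, Tnni3 and Nppb were higher on all 3. The median change over the 29 was 0.03, -0.10 and 0.03 on the 3 days, and over all genes 0.00, -0.05 and -0.02. Within 2-fold of the control at day 8 lay 19 of 29 members (65.5%), against 77.3% of all genes.

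The 4 members that were higher at day 8 were all dim, and with another background correction (normexp) their differences were between 0.35 (Myl7) and 0.72 (Nppb) on the log2 scale, under 2-fold, so that 0 members were higher. With that correction 0 members were higher at day 6 too, where Myl2 differed by 0.83, Nppb by 0.71 and Tnni3 by 0.39, and at day 4 Myl2 alone was (1.35). The share of all genes at least 2-fold higher was also smaller with that correction at day 4, day 6 and day 8. The lower counts of higher members therefore cannot be read as particular to the members. Myl2 was also under 2-fold at day 8 where its dim probe was counted, at 0.84 without a filter and 0.69 with a looser detection flag (gIsPosAndSignif). Of the 6 lower members, Tnnt2, Acta1, Cav3 and Ankrd1 stayed at least 2-fold lower under each of the 10 other ways of processing the signal.

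**Figure D2:**
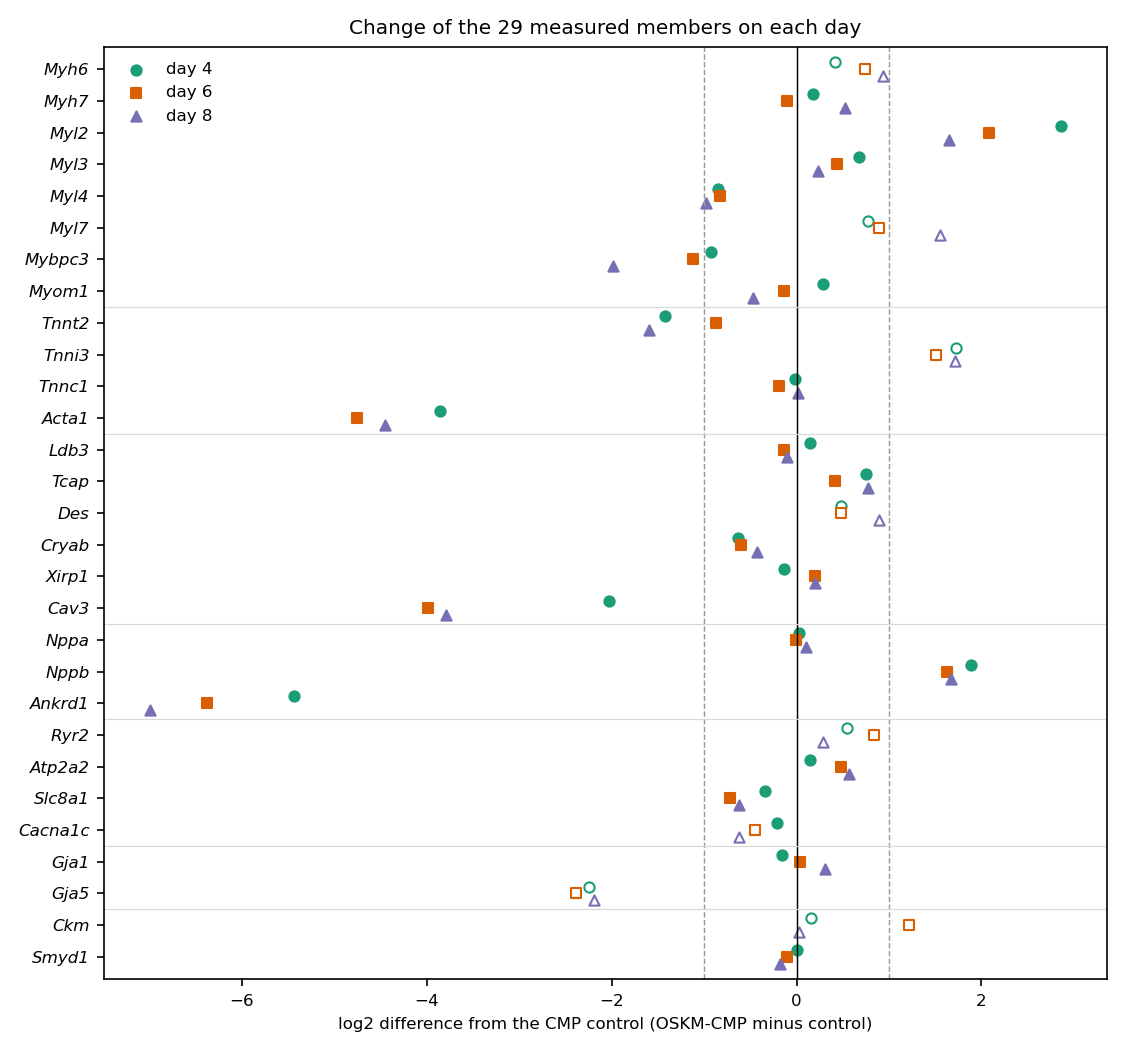
Log2 difference of each of the 29 measured members from the CMP control on day 4 (circles), day 6 (squares) and day 8 (triangles), ordered by role. Open symbols are differences in which a probe was not well above background on an array, and dashed lines mark 2-fold. Ankrd1, Acta1 and Cav3 lie far to the left, and Myl2 lies furthest to the right at day 4 with 2.87.

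Of the 8 measured thick filament genes, 2 were higher (Myl2 and Myl7), 1 was lower (Mybpc3) and 5 were neither at day 8. Over all genes 12.2% were higher and 10.5% lower. Myl2, the regulatory light chain of ventricular myosin, had levels of -4.47, -1.60, -2.38 and -2.82 on the control, day 4, day 6 and day 8 arrays. It rose by 2.87 ± 0.27 (log2) at day 4, 7.29-fold, and was 3.15-fold above the control at day 8. The day 8 array was 1.21 ± 0.21 below the day 4 array, so the level was highest at day 4 and lower at each later time. A further Myl2 probe was not well above background on any of the 4 arrays. Myl7, the atrial regulatory light chain, was not well above background in the control and had levels of -4.57, -4.45 and -3.78 in OSKM-CMPs. It was at least 2.94-fold higher at day 8, and the bounds at day 4 and day 6 were under 2-fold.

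Mybpc3, the cardiac myosin-binding protein C, had levels of -2.34, -3.27, -3.46 and -4.32. The step from day 4 to day 6 was within its error (-0.19 ± 0.25). Its difference from the control was -0.93 ± 0.23 at day 4, -1.12 ± 0.24 at day 6 and -1.99 ± 0.28 at day 8, which is 3.96-fold lower. The day 8 array was also over 2-fold below the day 4 array (-1.06 ± 0.29). With the normexp correction, which makes differences of dim genes smaller, the day 8 difference was -0.87, under 2-fold. Myl4, the atrial and embryonic essential light chain, was bright, with levels of 2.96, 2.11, 2.13 and 1.98. Its difference at day 8 was -0.98 ± 0.20, just short of 2-fold, and 86.2% of it was there at day 4.

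The myosin heavy chains themselves stayed near the floor. Myh6, the fast chain of mouse heart, was not well above background in the control and at -4.93, -4.60 and -4.41 in OSKM-CMPs, and was at least 1.91-fold higher at day 8. A further Myh6 probe was never well above background. Myh7, the slow chain, had levels of -4.03, -3.85, -4.13 and -3.51. Myl3, the ventricular essential light chain, had levels of -4.23, -3.55, -3.79 and -4.00, and its largest difference was 0.67 ± 0.29 at day 4. Myom1, which crosslinks thick filaments at the M-band, had levels of -4.59, -4.30, -4.73 and -5.06, with errors of 0.35 to 0.41 on its differences. None of these 4 was called on any day, and Ttn, the giant spring protein of the sarcomere, was not well above background with any of its 4 probes.

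On the thin filament Acta1 and Tnnt2 were lower and Tnni3 was higher. Acta1, skeletal muscle actin, had levels of 2.40, -1.46, -2.36 and -2.06. The differences from the control were -3.85 ± 0.21 (day 4), -4.75 ± 0.21 (day 6) and -4.46 ± 0.21 (day 8). At day 8 it was 21.9-fold lower, and 39 of 16543 genes fell further. Its probe, printed above, reads coding sequence that is highly alike among the muscle actins, and Acta2, smooth muscle actin, fell by 5.09 ± 0.06 at day 8, from 8.14 to 3.05. Whether Acta2 transcripts contribute to the Acta1 signal was not tested. Actc1, cardiac actin, had no signal well above background.

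Tnnt2, cardiac troponin T, had levels of 3.56, 2.14, 2.70 and 1.96. It was 2.68-fold lower at day 4, 1.82-fold lower at day 6 and 3.03-fold lower at day 8 (-1.60 ± 0.20), and so did not fall steadily. Tnni3, the cardiac inhibitory troponin, was not well above background in the control and had levels of -3.42, -3.64 and -3.43 in OSKM-CMPs. Over its dim control signal (-5.14) it was 3.31-fold, 2.84-fold and 3.28-fold higher on the 3 days, and these are no lower bounds. Its day 8 array differed from its day 4 array by -0.01 ± 0.25. Tnnc1, the calcium-binding troponin of heart and slow muscle, stayed level at -3.13, -3.15, -3.33 and -3.12. At day 8 the troponin subunits thus stood lower (Tnnt2), higher (Tnni3) and at a difference of 0.02 ± 0.23 (Tnnc1).

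**Figure D3:**
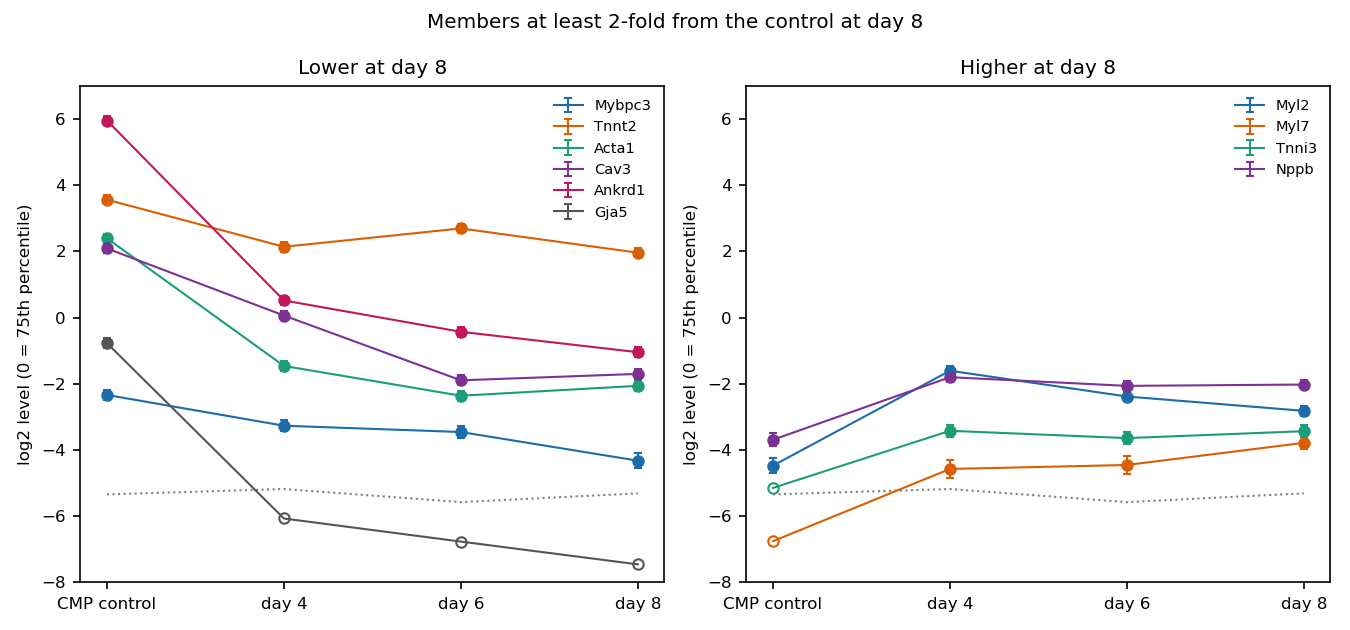
Log2 level on each array of the members at least 2-fold lower (left) or higher (right) than the CMP control at day 8; filled points are well above background, open points are not, bars are 1 SD of the error model and the dotted line is the lowest level well above background. For Gja5 the probe that moved is drawn; Ankrd1 falls from 5.96 to -1.04, and all 4 genes on the right stay at or below -1.60.

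At the Z-disc and the muscle membrane, Cav3 was the member that moved. Cav3, the muscle caveolin, had levels of 2.09, 0.06, -1.89 and -1.70. It differed from the control by -2.03 ± 0.20 at day 4 and by -3.98 ± 0.21 at day 6, and at day 8 was 13.8-fold lower (-3.79 ± 0.21), with 76 genes falling further. The difference between day 8 and day 4 was -1.76 ± 0.21, so the level went down in 2 steps and was lowest at day 6. Cryab, a small heat shock protein that binds desmin, was bright with both probes, which had levels of 6.77 and 4.33 in the control. Averaged over them it differed by -0.63 ± 0.14 at day 4 and -0.43 ± 0.14 at day 8. The remaining members here were dim or level. Des, the muscle intermediate filament desmin, was not well above background in the control and at -4.79, -4.80 and -4.38 after it. At day 8 it was 1.86-fold over its dim control signal (-5.28). Tcap, the titin cap, had levels of -4.92, -4.17, -4.50 and -4.14. Neither was called on any day. Xirp1, an actin-binding protein of the cell junction, had levels of -3.34, -3.47, -3.14 and -3.14. Ldb3, a Z-disc PDZ-LIM protein, averaged -1.89, -1.75, -2.02 and -1.99 over its 2 probes.

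Ankrd1 fell more than any other member. Ankrd1, the cardiac ankyrin repeat protein, is a stretch-responsive gene of muscle and of other adherent cells. It had levels of 5.96, 0.52, -0.43 and -1.04, and stayed well above background throughout. The differences from the control were -5.44 ± 0.20 (day 4), -6.38 ± 0.20 (day 6) and -7.0 ± 0.20 (day 8), which is 128-fold lower. At day 4, 9 of 16543 genes fell further, at day 6, 4 did, and at day 8, 0 did, with genes no longer well above background entered at their bound. The difference between day 8 and day 4 was -1.56 ± 0.20. Its probe lies at chr19:36186809-36186868 on mm9, minus strand.

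The natriuretic peptides, hormones released by stressed heart muscle, did not move together. Nppb had levels of -3.69, -1.80, -2.06 and -2.02. It was 3.71-fold higher at day 4 (1.89 ± 0.24), 3.09-fold at day 6 and 3.18-fold at day 8 (1.67 ± 0.24), with a difference of -0.22 ± 0.21 between day 8 and day 4. Nppa, read by 10 spots, had levels of -4.13, -4.10, -4.14 and -4.04, within 0.10 of each other. Its error on a difference was 0.10.

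**Figure D4:**
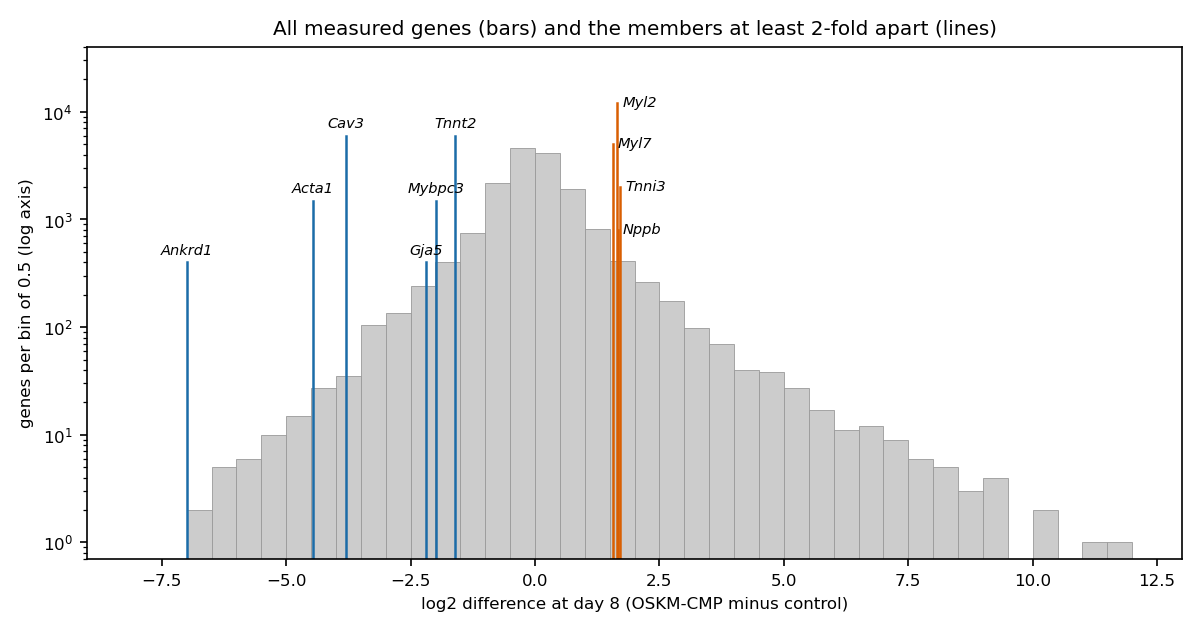
Number of genes in each bin of 0.5 of the log2 difference at day 8 (bars, log axis), for all 16543 measured genes, with lines at the members at least 2-fold from the control; the height of a line has no meaning. Ankrd1 stands at the left end with -7.0, while the 4 higher members lie between 1.56 and 1.71.

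No calcium handling member was called on any day when its probes were averaged, but single probes of Slc8a1 and Cacna1c were over 2-fold lower at day 8. Atp2a2, the SERCA2 pump, was read by 2 probes, with levels of 1.14, 1.34, 1.83 and 1.93 on one and -0.48, -0.39, -0.20 and -0.15 on the other. At day 8 it was above the control by 0.79 ± 0.20 and 0.34 ± 0.20 on them, a mean difference of 0.56 ± 0.14. Ryr2 was well above background at day 4 (-4.79) and day 6 (-4.50) and on neither of the other arrays, so it has no fold at day 8. Slc8a1, the sodium-calcium exchanger, gave different values on its probes. The probe at chr17:81844210-81844269 (mm9) had levels of -2.19, -2.78, -3.41 and -3.32, which is -1.14 ± 0.22 at day 8. The probe at chr17:81844837-81844896 had levels of -3.38, -3.48, -3.60 and -3.49, which is -0.11 ± 0.25 at day 8. The remaining probe was never well above background, and the mean of the measured pair was -0.62 ± 0.17 at day 8.

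Cacna1c also depended on the probe. The probe named Cacna1c (chr6:118544079-118544138, mm9) had levels of -3.98 and -4.21 in the control and at day 4 and was not well above background later. By its dim signal at day 8 (-5.25) it was 2.41-fold lower. The probe named D930026N18Rik (chr6:118537316-118537375, same strand) stayed at 1.17, 0.97, 1.15 and 1.19. The mean of both was -0.63 at day 8, so the call of Cacna1c turns on counting the probe found by synonym. Pln, the SERCA inhibitor phospholamban, and Casq2, the calcium store protein, were not well above background on any array.

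Of the conduction members, Gja5 was the 1 that was called, and on 1 of its 3 probes. Gja5 encodes connexin 40 of atrial muscle, conduction fibres and arterial endothelium. Its probe at chr3:96857349-96857408 (mm9) had a level of -0.77 in the control and was not well above background at day 4, day 6 or day 8. By this probe it was at least 21.2-fold, 27.9-fold and 23.2-fold lower. The probe at chr3:96881280-96881339 stayed level at -3.55, -3.65, -3.51 and -3.40, and the one at chr3:96836339-96836395 was never well above background. Averaging the measured pair gave differences of -2.25, -2.38 and -2.19, while the probe that stayed well above background on all 4 arrays gave 0.15 ± 0.27 at day 8. Gja1, connexin 43, the main connexin of the ventricle and of many stromal cells, was read by 9 spots and had levels of 0.63, 0.48, 0.67 and 0.94. At day 8 it was 0.31 ± 0.07 above the control. The pacemaker channel Hcn4 and the potassium channel Kcnq1 were not well above background on any array.

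Among the energy and assembly genes, Ckm, the muscle creatine kinase, was well above background at day 6 alone, with a level of -4.13, which is at least 2.32-fold over the control. Ckmt2, its mitochondrial relative, was not well above background. Smyd1, a muscle methyltransferase that helps myosin assembly, was level at 0.71, 0.72, 0.60 and 0.54 by the probe at chr6:71165337-71165396. The probe at chr6:71212063-71212122, also minus strand, was not well above background on any of the 4 arrays.

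**Figure D5:**
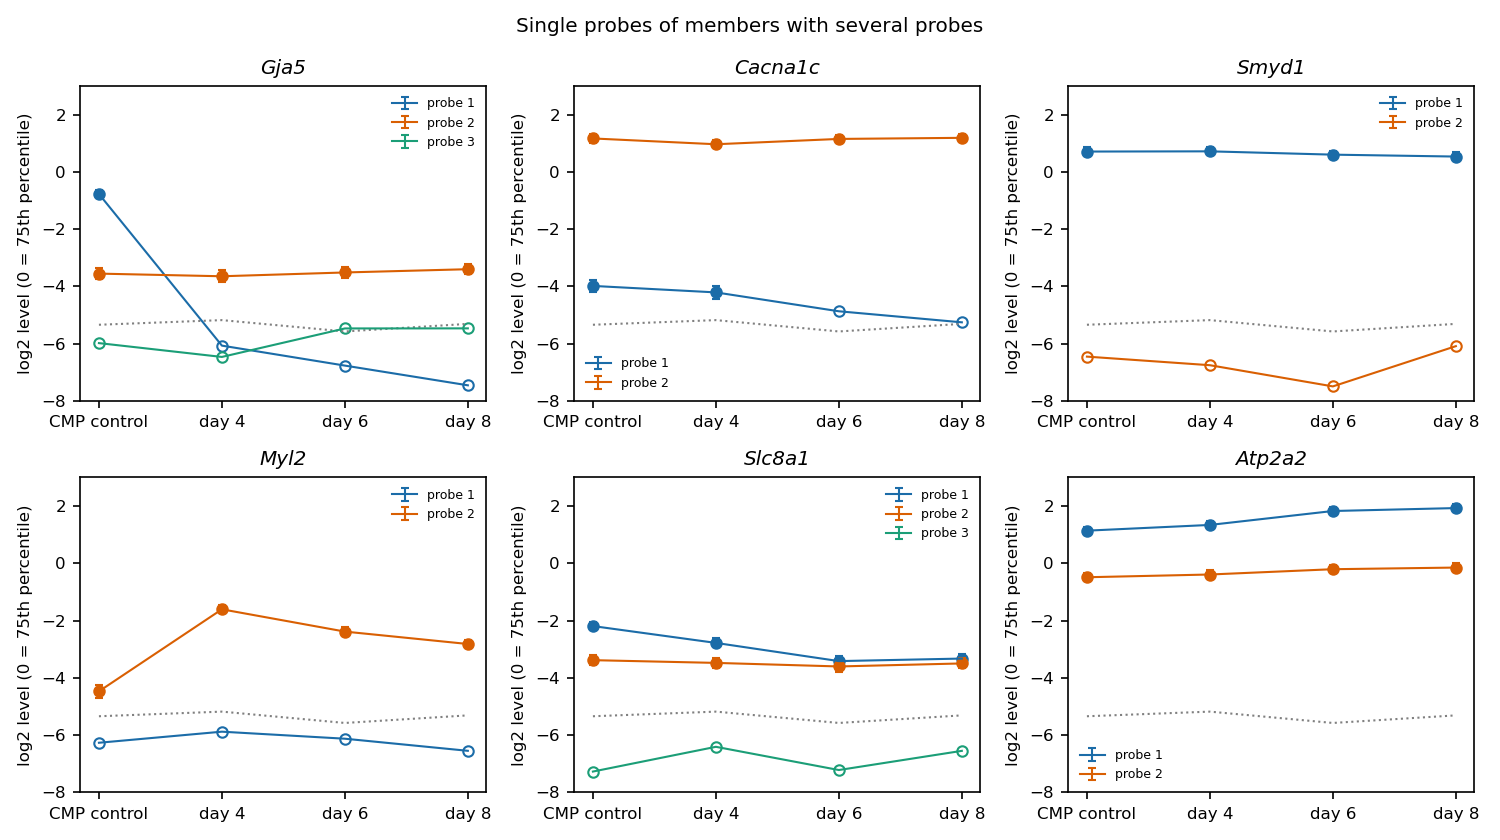
Log2 level on each array of the single probes of 6 members with several probes; symbols, bars and dotted line as in the plot of levels. Probes of Gja5, Cacna1c and Slc8a1 move differently from each other, those of Smyd1 and Myl2 differ in whether they are well above background, and both of Atp2a2 are higher at day 8 than in the control.

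From day 4 to day 8 the members were either lower by 2-fold or within 2-fold. Of 29 members, 4 were at least 2-fold lower at day 8 than at day 4 (Myl2, Mybpc3, Cav3 and Ankrd1), against 3.11% of all genes, and 0 were higher, against 3.54%. The median was -0.14 for the members and -0.03 for all genes. For Myl2 this is a step back toward the control, and for Mybpc3, Cav3 and Ankrd1 a step further from it. Of the log2 fall at day 8, 77.7% was there at day 4 for Ankrd1, 86.5% for Acta1, 53.5% for Cav3 and 46.8% for Mybpc3. These comparisons and those with the control share arrays.

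Genes of the same 3 systems outside the 40 moved in both directions. Beside the counts of these and the following lists at day 8 stand 10.5% of all genes lower and 12.2% higher. Of 34 measured other sarcomere and Z-disc genes, 10 were lower and 7 higher at day 8, with a median of -0.14. Pdlim3, a Z-disc PDZ-LIM protein, went from 0.84 to -2.43 (-3.27 ± 0.21), and Capzb, which caps actin filaments, differed by -2.38. Synpo2, an actin-bundling protein of the Z-disc, differed by 2.43, and Fbxo32, the muscle ubiquitin ligase atrogin-1, by 1.72 ± 0.07. Of 32 other calcium handling genes, 2 were lower and 11 higher, with a median of 0.31. The lower genes were Jph2, which ties the cell membrane to the calcium store (-2.75 ± 0.22), and Camk2d, a calcium-dependent kinase (-1.18 ± 0.10). Cacna1g, a T-type calcium channel, was not well above background in the control and was at least 26.2-fold higher, and Ppp1r1a, a phosphatase inhibitor, at least 12.9-fold.

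Of 30 other conduction genes, 7 were lower and 10 higher at day 8, with a median of 0.06. Kcne4, a potassium channel subunit, went from 0.48 to -3.68, and Gja4, connexin 37, from 0.17 to -2.16. Dsp, the desmosome protein desmoplakin, was not well above background in the control and was at least 89.1-fold higher at day 8, and Kcnk3, a potassium leak channel, at least 17.3-fold. Of 14 muscle energy genes, 2 were lower and 6 higher, with a median of 0.51. Cox8b, a respiratory chain subunit of heart, muscle and brown fat, had levels of -3.92, -1.14, 2.59 and 3.65. Slc2a4, the insulin-responsive glucose transporter of muscle and fat, had levels of -3.60, -3.37, -1.01 and 1.12. Pgam2 differed by -1.26 ± 0.21 and Cox6a2 by -1.0 ± 0.21.

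Of 15 cardiac transcription factors, 5 were lower and 2 higher at day 8. Tbx20 went from 2.95 to -2.72 (-5.67 ± 0.13) and Gata4 from 3.72 to -1.29 (-5.01 ± 0.21), while Isl1 differed by 2.83 ± 0.07 and Hand1 by 1.38. Of 10 defining markers of cardiomyocytes, 8 of them members, 9 were measured, and 2 were lower and 3 higher at day 8. Nkx2-5, a transcription factor of heart muscle, had levels of -0.13, -2.84, -3.28 and -3.16 and was 8.14-fold lower (-3.03 ± 0.22). Of the 10, 4 were well above background in the control and 8 on each OSKM-CMP array, and their summed log2 level was -31.7, -29.3, -29.9 and -29.6 over the 9 measured. The sums include genes not well above background, entered at or over the lowest level well above background of their array. Of these 10, Actc1 was not well above background on every array.

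Markers of other cell types moved over the same days. Of 11 smooth muscle markers, 7 were lower and 1 higher at day 8, and their summed log2 level went from 21.1 in the control to 3.36, 1.31 and 1.38. Cnn1 differed by -5.24 ± 0.22. All 10 adipocyte markers were well above background at day 8, 5 were in the control, 9 were higher at day 8, and their summed log2 level was -28.5, -11.2, 27.8 and 37.3. Of 10 endothelial markers, 6 were lower at day 8 and 0 higher, and their summed log2 level was -21.9, -32.0, -36.0 and -36.1. All 10 were well above background in the control, and 6 at day 8. The adipocyte and endothelial sums also include genes not well above background, entered at or over an array's lowest level well above background, which differs between arrays. Of 14 measured skeletal muscle genes, 3 were lower and 3 higher. Of 9 leukocyte markers, 0 were lower and 2 higher, and of 8 epicardial markers, 4 were lower and 2 higher. What part of the members' changes goes with these cell types was not tested.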

How the data were processed

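RNA of 4 samples, 1 per condition, was measured on 1-colour arrays. The authors deposited Feature Extraction files (version 10.7.3.1 per the file headers, 9.5.3 per the labels) with a background-subtracted processed intensity for each of 62976 spots, its error and flags. The authors also deposited log2 values normalized in GeneSpring, which equal the log2 processed signal shifted by a constant per array. Here the log2 processed signals of a probe's spots were averaged without outlier spots (55681 probes), and each array's 75th percentile was subtracted. A probe was kept when well above background (gIsWellAboveBG) on at least 1 array. Dim values under the lowest level well above background of their array were raised to it, and dim values over it were kept as measured. Kept probes of a gene were averaged, which understates its change where 1 of them is dim, and probes whose log2 changes differed by more than 1 are given singly. By symbol or unique synonym in the RefSeq table of GRCm38.p6, 31026 probes were named. Genes were called at 2-fold. No comparison had a test, and the number of arrays limits the precision. The pipeline was tested on simulated data.

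The members and the other gene lists were chosen with earlier results of these data known. Every measured member is named with its values, the others by name, and of each other list at most 2 genes with the largest rise and 2 with the largest fall at day 8 past 2-fold. Alternatives were scaling by the array median, quantile normalization, normexp background correction (offset 50) followed by it, the values normalized by the authors, dim probes at their own signal, no filter, a filter on all 4 arrays, the probe with the highest mean signal, the flag gIsPosAndSignif as detection, all kept probes well above background as detection, naming by accession, and folds of 1.5 and 4. Python 3.11.15, numpy 2.4.6, pandas 2.3.3, matplotlib 3.10.9, R 4.3.3 and limma 3.58.1 were used.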

Additional observations from a re-analysis of the deposited data

How the results depend on the processing

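Of 96 counts of members past the fold under the alternatives, 75 stayed within 1.5 times the reported count. With normexp correction, 1 member was higher at day 4, 0 at day 6, 0 at day 8, and 2 were lower at day 8 than at day 4. The shares of all genes in the same comparisons were smaller with it too. With dim probes at their own signal, 5 members were higher at day 4. With probes well above background on all arrays, 2 were higher at day 6 and 2 at day 8 (Myl2 and Nppb). The flag gIsPosAndSignif as detection kept 38 members and 20283 genes in all, where 16543 genes were kept as reported. With it, 9 members were higher on day 4, 9 on day 6 and 7 on day 8, and 2 were higher at day 8 than at day 4. A threshold of 1.5-fold gave 8 lower and 6 higher at day 4, 9 lower and 7 higher at day 6, 7 higher at day 8, and 1 higher at day 8 than at day 4. A threshold of 4-fold gave 1 higher on day 4, 1 on day 6 and 0 on day 8, and 0 lower on day 8 than on day 4. The counts of members well above background stayed within 1.5 times under both alternatives. Among these alternatives, shares of all genes past the fold are compared for normexp alone. Whether the other counts depart from all genes cannot be read from them.

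The median change of the members was -0.16 at day 8 with quantile normalization. With the array median as the scale it was -0.11, -0.24 and -0.24 on the 3 days, and the median of all genes moved to -0.14, -0.18 and -0.29. Without a filter it was 0.16 at day 4 and -0.21 at day 6, with probes well above background on all arrays -0.093 at day 4, and with the probe of the highest mean signal 0.035 at day 6. With gIsPosAndSignif it was 0.15, 0.039 and 0.22. Gja5 changed sign at day 6 (0.040) and day 8 (0.15), both with the probe of the highest mean signal and with probes well above background on all arrays, because these leave 1 probe. The cause of the other moves was not tested. No paired analysis was possible because there is a single array of each kind. With single arrays, the spread between cultures is unknown. The signal over background limits Myl7, Myh6, Ryr2 and Ckm to bounds on their rise over the control. It limits Tnni3 and Des to differences from a dim control signal.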
